A study of Mus musculus with 2 samples.

Results

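The interferon regulatory factors form a family of transcription factors that bind GAAA-rich DNA through a shared tryptophan-repeat domain. The 8 members described here are Irf1, Irf2, Irf3, Irf4, Irf5, Irf7, Irf8 and Irf9, taken by gene symbol from the 23238 symbols of the deposited files. All 8 had more than 50 reads in at least 1 library, the floor that 10469 genes passed. The study compared mouse bone marrow-derived dendritic cells given 100 nM UNE-C1 for 24 h with Control cells of the same type. UNE-C1, part of the enzyme cysteinyl-tRNA synthetase, is known to bind Toll-like receptors. Both cultures were raised from marrow of female C57BL/6 mice (age, 7 weeks) in medium with GM-CSF at 20 ng/ml, topped up on day 3, and the loosely attached and floating cells were used on day 6. What the Control cells received in place of UNE-C1, and whether marrow of several animals was pooled, the labels do not say.

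Each condition had 1 library, of 15975821 reads for UNE-C1 and 14857198 reads for Control. No difference given here has a replicate check, and no p-value was computed. Levels are CPM (read counts scaled to library size) scaled with TMM library sizes, and a fold is the plain ratio of the UNE-C1 to the Control level. The interval given with a fold is the exact 95% interval from the 2 read counts (Clopper-Pearson, conditional binomial) and covers counting error only. The libraries were made with a kit that reads the 3' ends of messenger RNAs, so a longer transcript does not give more reads. Levels of different genes are therefore set side by side in CPM without division by length, as an approximation, since the 3' ends of genes can be captured unequally.

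As background, IRF3 and IRF7 wait in the cytoplasm until kinases below pattern-recognition receptors phosphorylate them, and then switch on type I interferon genes. Interferon, through its receptor and Janus kinases, activates STAT proteins, among them STAT2, which join IRF9 in the complex ISGF3 and drive interferon-stimulated genes, Irf7 among them. IRF1 activates and IRF2 mostly restrains overlapping target genes. IRF5 drives inflammatory cytokines below Toll-like receptors. IRF8 and IRF4 pair with the factor PU.1 and set the identity of dendritic cell subsets.

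Of the 8 members, 3 (Irf7, Irf1 and Irf8) were higher by 2-fold or more in UNE-C1 cells on the log2(CPM + 1) scale, and none was lower by as much. Of all genes past the floor, 9.31% were higher and 9.42% lower by the same rule. A log2 fold change above 0 was found for 6 of the 8 members and for 49.6% of all genes past the floor. The median log2 fold change was 0.71 over the 8 members and -0.00 over all genes. Scaled by total counts instead, the median of all genes was -0.33, and Irf8, at 0.98, was just under the 2-fold line.

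**Figure D1:**
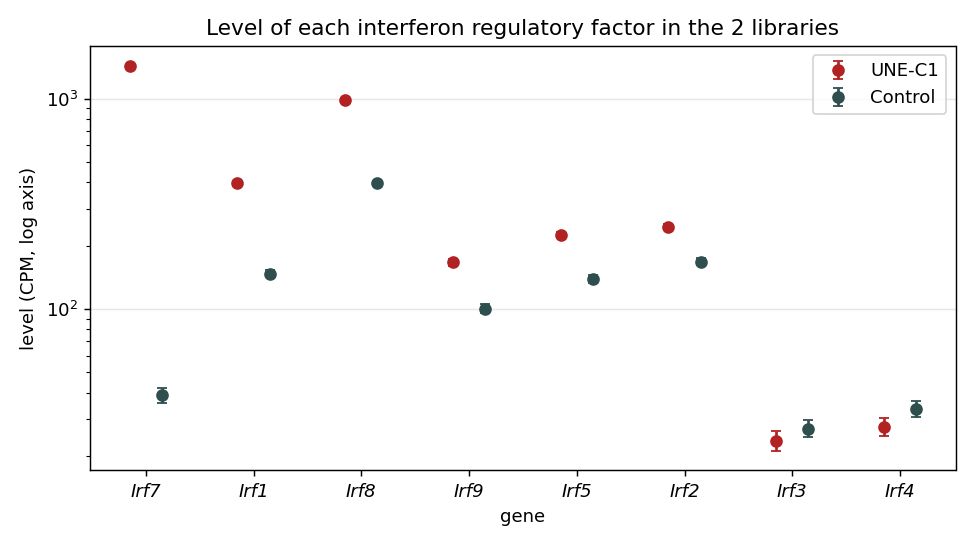
Level of each member in CPM (log axis) in the UNE-C1 library (red, left of each pair) and the Control library (dark, right), with exact Poisson 95% intervals that are often smaller than the points. Irf7 stands at 1424 CPM in UNE-C1 cells against 38.8 CPM in Control cells, while Irf3 and Irf4 lie between 23.5 and 33.5 CPM in both libraries.

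Irf7, which amplifies interferon production, had by far the largest difference of the family. It had 20200 reads (1424 CPM) in the UNE-C1 library, against 649 reads (38.8 CPM) in the Control library. The ratio was 36.7 (interval 34.0 to 39.8), with a log2 fold change of 5.16. That was the 20th highest value of the 10469 genes. By read number Irf7 was the 84th most abundant of 14768 genes with a read in UNE-C1 cells and the 3780th of 14940 in Control cells. Irf3, which starts interferon transcription and is held in the cell as a latent protein, had no such difference. It had 334 reads (23.5 CPM) in UNE-C1 cells and 451 reads (27.0 CPM) in Control cells, and its ratio of 0.874 had an interval (0.756 to 1.01) that holds 1. With total counts the ratio of Irf3 was 0.689 and its interval (0.596 to 0.795) lay below 1. Within the UNE-C1 library there were 60.5 Irf7 reads for each Irf3 read (54.3 to 67.6), against 1.44 in the Control library (1.27 to 1.63). This ratio of reads was 42.0 times as large in UNE-C1 cells (35.6 to 49.6), a value that does not depend on how the libraries are scaled.

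Irf9, the DNA-binding subunit of ISGF3, was moderately higher. It had 2363 reads (167 CPM) in UNE-C1 cells and 1680 reads (100.4 CPM) in Control cells, a ratio of 1.66 (1.56 to 1.77). Its partner in the complex, Stat2, differed more. Stat2 had 327 CPM in UNE-C1 cells and 46.2 CPM in Control cells, a ratio of 7.08 (6.56 to 7.65). Within a library, there were 1.96 Stat2 reads per Irf9 read in UNE-C1 cells (1.87 to 2.06) and 0.460 in Control cells (0.422 to 0.501). Irf9 thus had fewer reads than Stat2 in UNE-C1 cells and more in Control cells. Irf9 relative to Irf3 was 7.07 reads per read in UNE-C1 cells and 3.73 in Control cells, 1.90 times as large (1.62 to 2.22).

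Irf1, an activator that interferon gamma and NF-kappaB both induce, and Irf2, its antagonist, changed places in the order of levels. Irf1 had 5627 reads (397 CPM) in UNE-C1 cells, against 2463 reads (147 CPM) in Control cells, a ratio of 2.70 (2.57 to 2.83), or 1.42 as a log2 fold change. Irf2 had 3487 reads (246 CPM) in UNE-C1 cells and 2810 reads (168 CPM) in Control cells, a ratio of 1.46 (1.39 to 1.54). Both were higher, but unequally. There were 1.61 Irf1 reads for each Irf2 read in UNE-C1 cells (1.55 to 1.68) and 0.877 in Control cells (0.830 to 0.926). The ratio of these ratios was 1.84 (1.72 to 1.97). Irf1 ranked 579th and Irf2 2044th by log2 fold change among all genes compared.

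Irf8, needed for type 1 conventional dendritic cells, plasmacytoid dendritic cells and monocytes, was the most abundant member in Control cells. It had 14059 reads (991 CPM) in UNE-C1 cells and 6634 reads (396 CPM) in Control cells, a ratio of 2.50 (2.43 to 2.57), or 1.32 as a log2 fold change. Irf4, needed for type 2 conventional dendritic cells and for GM-CSF-grown dendritic cells, was among the scarcest members. It had 389 reads (27.4 CPM) in UNE-C1 cells and 560 reads (33.5 CPM) in Control cells, 1.22-fold lower (1.07 to 1.39). The 2 genes thus stood on opposite sides of equal levels. Irf8 reads per Irf4 read were 36.1 in UNE-C1 cells (32.7 to 40.1) and 11.8 in Control cells (10.9 to 12.9), 3.05 times as large in UNE-C1 cells (2.67 to 3.49).

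Irf5, which acts below MyD88, was higher by a margin close to that of Irf9. It had 3188 reads (225 CPM) in UNE-C1 cells and 2327 reads (139 CPM) in Control cells, a ratio of 1.62 (1.53 to 1.71). Its 3' end shares 411 exonic bases with the 3' end of Tnpo3, a nuclear import receptor gene on the other strand. Tnpo3 itself had fewer reads in UNE-C1 cells, 1531 against 2075 in Control cells. No source used here says whether the counting used strand, so reads of the 2 genes in this stretch cannot be told apart.

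**Figure D2:**
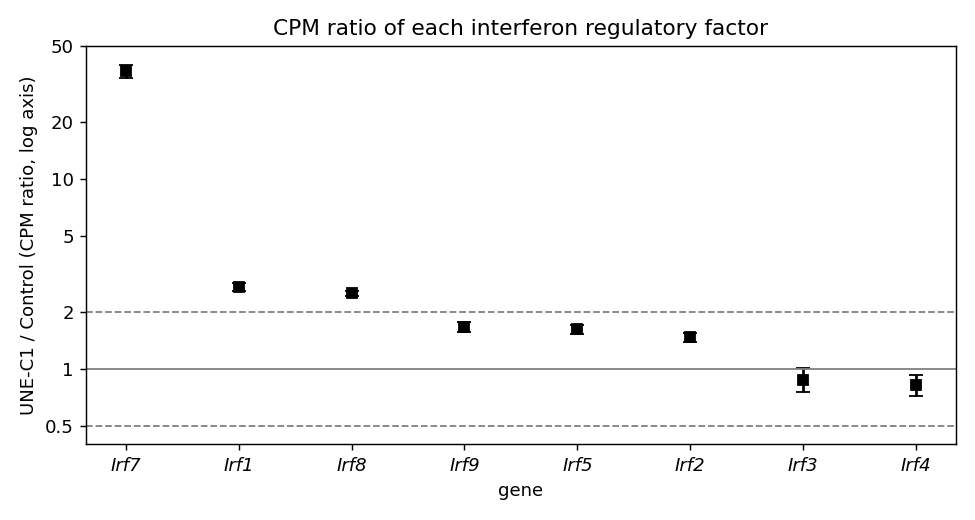
Ratio of the UNE-C1 to the Control level for each member (log axis), with the exact 95% counting interval. Solid line, equal levels. Dashed lines, 2-fold higher and lower. Irf7, Irf1 and Irf8 lie above the upper dashed line, and the interval of Irf3 crosses the solid line, which it does not with total counts.

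Summed over the 8 genes, the family took 0.311% of all UNE-C1 reads and 0.118% of all Control reads. In CPM the sum was 3500 in UNE-C1 cells and 1050 in Control cells, a ratio of 3.33 (3.28 to 3.39). Irf7 accounted for a large part of this. Without it the other 7 members summed to 2076 CPM in UNE-C1 cells and 1011 CPM in Control cells, a ratio of 2.05 (2.01 to 2.09).

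The make-up of the family reads shifted towards Irf7. Irf7 took 40.7% of them in UNE-C1 cells (exact 95% interval 40.3 to 41.1) and 3.69% in Control cells (3.42 to 3.98). The shares of the 7 other members were all smaller in UNE-C1 cells, since shares must add up. Irf8 took 28.3% in UNE-C1 cells and 37.7% in Control cells. In proportion, Irf1 differed least, with 11.3% in UNE-C1 cells and 14.0% in Control cells. Irf2 took 7.02% in UNE-C1 cells against 16.0% in Control cells, Irf5 6.42% against 13.2%, and Irf9 4.76% against 9.56%. Irf3 and Irf4 had the 2 smallest shares in both libraries. Irf3 took 0.673% in UNE-C1 cells and 2.57% in Control cells, and Irf4 took 0.784% in UNE-C1 cells and 3.19% in Control cells, not far below the 3.69% of Irf7 there.

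**Figure D3:**
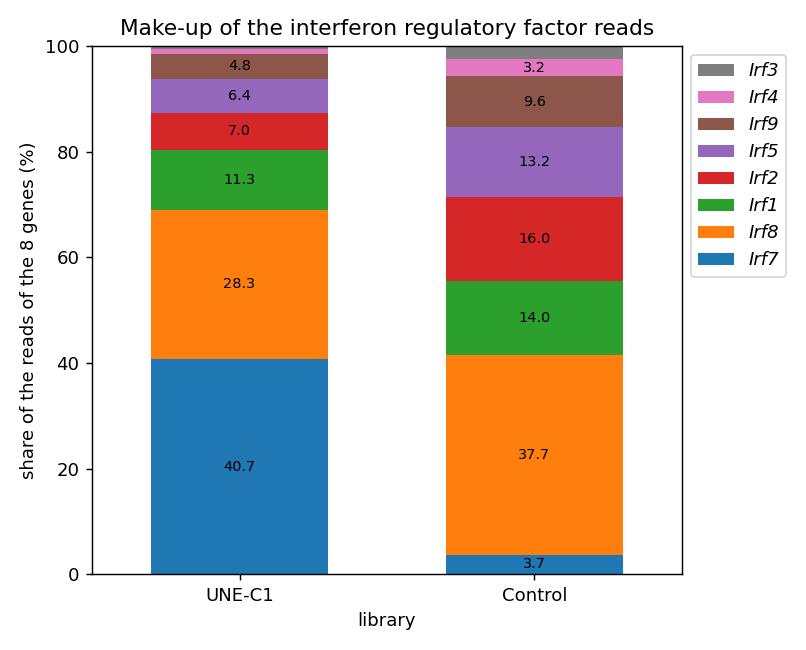
Share of the reads of the 8 genes taken by each member in the UNE-C1 library (left) and the Control library (right), in percent, with shares above 3% printed. The Irf7 segment at the bottom spans 40.7% in UNE-C1 cells and 3.7% in Control cells.

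The order of the members by level in UNE-C1 cells was Irf7, Irf8, Irf1, Irf2, Irf5, Irf9, Irf4 and Irf3. In Control cells it was Irf8, Irf2, Irf1, Irf5, Irf9, Irf7, Irf4 and Irf3. The single pair of neighbours whose ratio of reads could not be told from 1 by counting error was Irf1 and Irf5 in Control cells (1.06, interval 1.00 to 1.12). Irf4 and Irf3 in UNE-C1 cells were barely apart (1.16, interval 1.00 to 1.35). Irf7 held the first place in UNE-C1 cells and the sixth place in Control cells, and Irf1 stood above Irf2 in UNE-C1 cells and below it in Control cells. The other members kept their order among themselves.

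**Figure D4:**
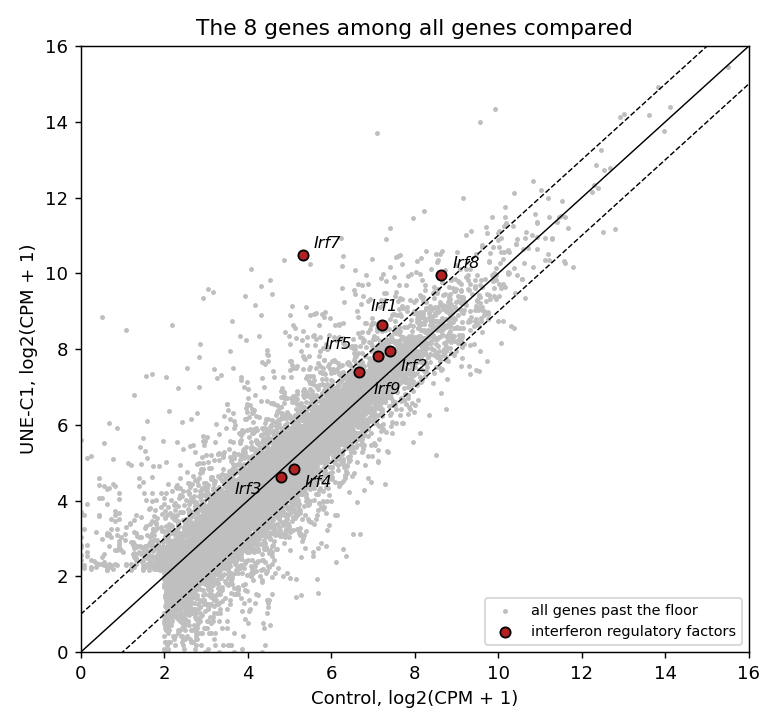
Level of every gene past the floor in UNE-C1 cells (vertical axis) against Control cells (horizontal axis), both as log2(CPM + 1). Grey, all 10469 genes. Red, the 8 members. The solid line marks equal levels and the dashed lines a 2-fold difference. Irf7 lies far above the upper dashed line, and Irf3 and Irf4 lie just below the solid line.

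The promoters are shown for the 3 members that were at least 2-fold higher and for Irf2, whose window held the most motif matches. The windows are those of RefSeq on GRCm38.p6, from 250 bases before to 50 bases after an annotated start, and all 8 members had at least 1. Where a gene had several, the window nearest to the GENCODE M21 start was used. They were searched on both strands for 4 motifs. These were the core of the interferon-stimulated response element (GAAA, any 2 bases, GAAA), the composite site of ETS and IRF proteins (GGAA, any 2 bases, GAAA), the gamma-activated site of the interferon gamma response (TTC, any 3 bases, GAA) and the NF-kappaB consensus. Capitals mark matches. The Irf1 window lies at chr11:53769764-53770063 on the plus strand, that of Irf8 at chr8:120736108-120736407 on the plus strand, that of Irf2 at chr8:46739495-46739794 on the plus strand and that of Irf7 at chr7:141266375-141266674 on the minus strand.
Irf7 promoter: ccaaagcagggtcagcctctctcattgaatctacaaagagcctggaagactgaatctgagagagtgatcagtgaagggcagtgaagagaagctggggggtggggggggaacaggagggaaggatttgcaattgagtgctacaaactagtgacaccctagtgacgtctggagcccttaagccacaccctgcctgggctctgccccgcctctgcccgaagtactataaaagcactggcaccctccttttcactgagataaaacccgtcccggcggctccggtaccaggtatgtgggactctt
Irf1 promoter: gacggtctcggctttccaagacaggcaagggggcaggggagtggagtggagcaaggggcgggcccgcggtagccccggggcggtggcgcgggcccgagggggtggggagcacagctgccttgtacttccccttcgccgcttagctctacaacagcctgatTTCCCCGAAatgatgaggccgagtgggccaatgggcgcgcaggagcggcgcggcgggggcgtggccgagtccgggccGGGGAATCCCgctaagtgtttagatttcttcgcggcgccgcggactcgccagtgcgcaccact
Irf8 promoter: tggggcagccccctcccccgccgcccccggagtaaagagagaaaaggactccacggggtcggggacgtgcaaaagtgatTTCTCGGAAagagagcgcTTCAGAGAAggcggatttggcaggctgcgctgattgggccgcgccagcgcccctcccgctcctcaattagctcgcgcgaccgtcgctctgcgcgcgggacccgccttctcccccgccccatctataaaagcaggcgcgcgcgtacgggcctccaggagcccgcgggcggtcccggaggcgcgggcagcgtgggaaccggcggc
Irf2 promoter: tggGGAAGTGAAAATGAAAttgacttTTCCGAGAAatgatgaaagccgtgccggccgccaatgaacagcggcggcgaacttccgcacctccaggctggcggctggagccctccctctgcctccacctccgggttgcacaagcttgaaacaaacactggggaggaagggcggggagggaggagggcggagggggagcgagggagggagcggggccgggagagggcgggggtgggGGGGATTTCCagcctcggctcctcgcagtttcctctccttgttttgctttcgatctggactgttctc

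The Irf1 window holds a gamma-activated site, TTCCCCGAA, centred 86 bases before the start, and an NF-kappaB consensus match, GGGGAATCCC, centred 9 bases before it. The Irf8 window holds a pair of gamma-activated site matches, TTCTCGGAA and TTCAGAGAA, centred 167 and 149 bases before the start. The Irf2 window holds a match to each of the 4 motifs. Its response element core and its composite site overlap in the stretch GGAAGTGAAAATGAAA. The Irf7 window and the windows of Irf3, Irf4, Irf5 and Irf9 hold no match, which says only that these letters are not in these windows. The start used for the Irf9 window lies 414 bases downstream of the GENCODE start, which falls outside that window. Of all 32851 promoter windows in the table, 8.30% held a gamma-activated site match, 8.46% an NF-kappaB consensus match, 3.44% a response element core and 2.72% a composite site. A match is a description of the sequence, and binding was not measured.

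Kinases and adaptors relay signals from pattern-recognition receptors to the IRF proteins. Of 17 that activate IRF3, IRF5 or IRF7, 2 were higher by 2-fold or more and none lower by as much, with a median log2 fold change of 0.43, beside 9.31% higher and 9.42% lower among all genes past the floor. The ubiquitin ligase Traf6 had 40.0 CPM in UNE-C1 cells and 15.8 CPM in Control cells (ratio 2.54, 2.19 to 2.95). Ticam1, the adaptor TRIF, had 34.9 CPM in UNE-C1 cells and 14.6 CPM in Control cells (ratio 2.39, 2.05 to 2.80). Both were under 2-fold with total counts. The adaptor genes Tank and Ticam2 had ratios of 1.97 (1.83 to 2.11) and 1.67 (1.52 to 1.84). Tbk1 and Ikbke, the kinases of IRF3 and IRF7, had ratios of 1.54 (1.38 to 1.72) and 1.34 (1.23 to 1.45).

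On the list of interferon ligands, receptors and Janus kinases, 7 of 15 genes passed the floor. Of these, 2 were at least 2-fold higher and none was lower by as much (median 0.57). The shares over all genes past the floor were 9.31% higher and 9.42% lower. The 2 higher genes were Jak2 (ratio 2.51, 2.39 to 2.65) and the receptor chain Ifnar2 (2.35, 2.24 to 2.48), and both were under 2-fold with total counts. Jak1 had a ratio of 1.49 (1.44 to 1.54). Ifngr1, a chain of the interferon gamma receptor, was 1.66-fold lower (1.53 to 1.80). The 8 listed interferon genes had at most 2 reads in either library. Ifnb1 had 1 read in UNE-C1 cells and 0 in Control cells, Ifng had 2 and 0, and the 6 others had no read in either library. A count of 0 allows up to 0.211 CPM in UNE-C1 cells and 0.179 CPM in Control cells.

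Among 11 binding partners and cofactors, 2 were higher by 2-fold or more, Stat2 among them, and none was lower by as much (median 0.22). The shares over all genes past the floor were 9.31% higher and 9.42% lower. Spi1, which encodes PU.1, the partner of IRF4 and IRF8, had 326 CPM in UNE-C1 cells and 447 CPM in Control cells, 1.37-fold lower (1.32 to 1.42). Batf, a partner of IRF4 and IRF8 at AP-1 composite sites, had 236 reads in UNE-C1 cells and 134 in Control cells (ratio 2.08, 1.67 to 2.59; log2 fold change 0.97). Batf3, which works with IRF8, was 1.19-fold lower (1.08 to 1.31). Irf8 was thus higher in UNE-C1 cells while the messages of PU.1 and BATF3 were lower.

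Of 9 genes that restrain IRF proteins or their messages, 8 passed the floor, 3 were at least 2-fold higher and none was at least 2-fold lower (median 0.31). Of all genes past the floor, 9.31% were higher and 9.42% lower by that rule. Trim21, a ubiquitin ligase of several IRF proteins, had 27.7 CPM in UNE-C1 cells and 6.57 CPM in Control cells (ratio 4.21, 3.40 to 5.26). Eif4ebp1 and Eif4ebp2 encode repressors of cap-dependent translation that are known to hold back translation of Irf7 messages in mouse cells. They went opposite ways. Eif4ebp1 had 177 CPM in UNE-C1 cells and 42.9 CPM in Control cells (ratio 4.13, 3.80 to 4.49). Eif4ebp2 had 57.7 CPM in UNE-C1 cells and 90.8 CPM in Control cells, 1.57-fold lower (1.44 to 1.71). Tax1bp1, an adaptor that dampens signalling, had a ratio of 2.31 (2.21 to 2.41), and was under 2-fold with total counts.

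Genes known as targets of IRF complexes were mostly higher. Each of the 15 listed ISGF3 targets passed the 2-fold line upwards, and their median log2 fold change was 3.99. Over all genes past the floor, 9.31% passed it upwards and 9.42% downwards. The target lists were chosen with earlier results of these data known. Rsad2, which encodes viperin, had 13265 CPM in UNE-C1 cells and 136 CPM in Control cells, and Oasl1, known in mice to restrain Irf7 translation, had 720 CPM and 8.07 CPM in the same order (ratio 89.2, 75.3 to 107). Ifit2 had a ratio of 47.2 (41.6 to 53.9). Of 13 IRF1 targets, 11 were higher by 2-fold or more and none lower by as much (median 2.23). Nos2, the inducible nitric oxide synthase, had 6510 reads in UNE-C1 cells and 7 in Control cells, and Ptgs2, the cyclooxygenase COX-2, had 245 and 15. Gbp2 had a ratio of 11.6 (11.0 to 12.2) and Il15 of 6.37 (5.61 to 7.25). The exceptions were Ciita, the class II transactivator, with a log2 fold change of 0.38, and the NADPH oxidase gene Cybb, with -0.47. Of 5 IRF5 targets, 3 passed the floor. Il12b had 1147 CPM in UNE-C1 cells and 169 CPM in Control cells (ratio 6.79, 6.52 to 7.07) and Il6 had 226 and 6 reads, whereas Tnf was 1.26-fold lower (1.11 to 1.43). These lists overlap with the genes of the interferon response at large, so a gene on them is not shown to answer to the factor in the list's name.

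**Figure D5:**
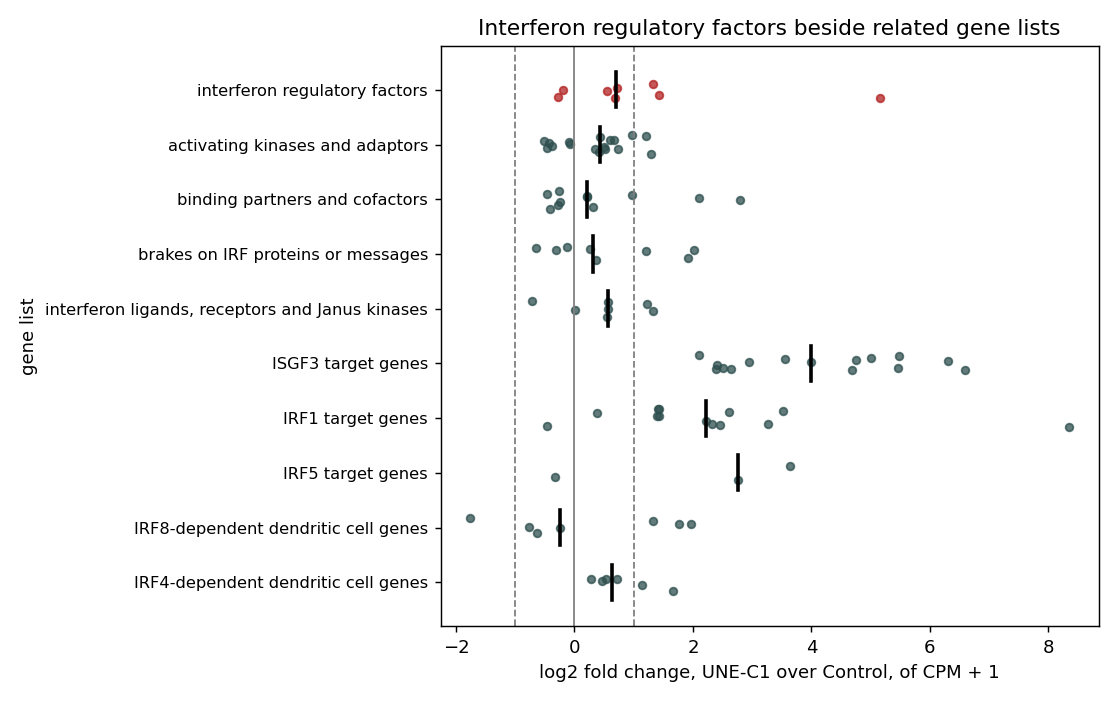
Log2 fold change (UNE-C1 over Control, of CPM + 1) of the 8 members (red, top) and of the genes past the floor on 9 related lists (dark). Black bars, medians. Dashed lines, 2-fold higher and lower. The ISGF3 targets all lie right of the 2-fold line, with a median of 3.99, while the members have a median of 0.71 and Irf7 stands alone at 5.16.

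Genes listed for IRF8-dependent dendritic cells did not move together. Of 9, 7 passed the floor, with 3 higher and 1 lower by 2-fold or more (median -0.24). The same 3 were the only ones above 0. Over all genes past the floor, 9.31% were higher and 9.42% lower by 2-fold or more, and 49.6% were above 0. Batf3, Wdfy4 and Naaa had log2 fold changes of -0.24, -0.64 and -0.76. The chemokine receptor Xcr1 had 189 reads in UNE-C1 cells and 54 in Control cells (ratio 4.13, 3.04 to 5.70), and Tlr3 had 392 and 106 (ratio 4.36, 3.51 to 5.46). Id2 had a ratio of 2.50 (2.45 to 2.54), under 2-fold with total counts. Clec9a, a further marker of type 1 conventional dendritic cells, had 34 reads in UNE-C1 cells and 175 in Control cells, 4.36-fold lower (3.01 to 6.50). Of 8 genes listed for IRF4-dependent dendritic cells, 6 passed the floor, with 2 at least 2-fold higher and none lower by as much (median 0.63). The names of both lists are labels, and dependence of a listed gene on either factor was not tested. All 6 were above 0 with TMM scaling, but Klf4, at 0.27, was at -0.06 with total counts. The lectin Mgl2 had a ratio of 3.21 (2.99 to 3.44) and the chemokine Ccl17 of 2.21 (2.09 to 2.35), and Ccl17 was under 2-fold with total counts. Pdcd1lg2, which encodes the checkpoint ligand PD-L2, had a ratio of 1.68 (1.47 to 1.93), and the chemokine receptor Ccr7 of 1.45 (1.39 to 1.50).

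In bulk RNA, fewer cells of a type and less RNA per cell cannot be told apart. All 9 conventional dendritic cell markers passed the floor, with none at least 2-fold higher and 1 lower by as much (median -0.07). Beside this and the marker counts below stand the shares of all genes past the floor, 9.31% upwards and 9.42% downwards. The 9 markers summed to 9266 CPM in UNE-C1 cells and 9928 CPM in Control cells. The 1 lower marker was Itgax, the CD11c gene, with 246 CPM in UNE-C1 cells and 759 CPM in Control cells. Most of the sum came from the antigen presentation genes Cd74, H2-Ab1 and H2-Eb1, and H2-Ab1 had 2594 CPM in UNE-C1 cells and 2732 CPM in Control cells. The lineage genes Zbtb46 and Flt3 were scarce, with 62 reads of Zbtb46 in each library and 62 reads of Flt3 in UNE-C1 cells against 143 in Control cells. The maturation marker Cd83 had a ratio of 1.62 (1.53 to 1.72). Markers of other cells differed between the libraries. All 11 neutrophil markers measured were at least 2-fold lower, and their summed level was 3211 CPM in UNE-C1 cells and 8321 CPM in Control cells. Retnlg was lower by 13.1-fold (10.8 to 16.0) in UNE-C1 cells. Among monocyte and macrophage markers, 11 passed the floor, and 3 were higher and 5 lower by 2-fold or more. The summed level of this list was 5791 CPM in UNE-C1 cells and 8195 CPM in Control cells. The 3 higher markers were Fcgr1, Ly6c2 and Adgre1, with log2 fold changes of 3.55, 1.74 and 1.57. Among the 5 lower ones, the mannose receptor gene Mrc1 was 13.7-fold lower (10.9 to 17.4). Lyz2, also among them, had a log2 fold change of -1.60. Mast cell, basophil and eosinophil markers summed to 803 CPM in UNE-C1 cells and 1223 CPM in Control cells, and Siglecf was 5.48-fold lower (4.07 to 7.52). Of 6 plasmacytoid dendritic cell markers 3 passed the floor, and 1 of them, Bst2, itself interferon-inducible, was at least 2-fold higher. Tcf4 had a ratio of 1.55 (1.44 to 1.66) and Ccr9 was 1.70-fold lower (1.20 to 2.41). Siglech, under the floor, had 0 reads in UNE-C1 cells and 9 in Control cells. B cell markers summed to 0.352 CPM in UNE-C1 cells and 2.03 CPM in Control cells with Pax5 at 0 in both, and T and natural killer cell markers summed to 1.62 CPM in UNE-C1 cells and 5.02 CPM in Control cells with Cd3e at 0 in both. On the list of T and natural killer cell markers Klrd1 alone passed the floor, with 9 reads in UNE-C1 cells and 76 in Control cells, 7.16-fold lower (3.58 to 16.3). The part of these shifts in the levels of the IRF genes was not tested.

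Predicted genes with Gm or Rik symbols were left out of the search for nearest genes. Distance was taken over the log2(CPM + 1) values of the 2 libraries, a description of 2 points each. The nearest genes were sought for the 3 higher members. For Irf7 they were Ifit1, Ifit3 and Slc7a2, at distances of 0.30, 0.47 and 0.98. Among the genes searched, Irf7 thus had a sparsely filled neighbourhood in which the nearest pair were interferon-induced antiviral genes. For Irf1 they were Tmem132a, Trim25 and Rnf19b (0.02, 0.10 and 0.13), and for Irf8 Srgn, Prr13 and Il1rn (0.17, 0.20 and 0.26).

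All 8 members are protein-coding genes in GENCODE M21 on GRCm38, the assembly also called mm10. Irf7 lies on the minus strand of chromosome 7 from 141262706 to 141266481. Its 3' end shares 45 exonic bases with the oppositely oriented Phrf1, which had 742 reads in UNE-C1 cells and 854 in Control cells, and without strand the reads of that stretch cannot be told apart. Irf9, on the plus strand of chromosome 14 from 55603571 to 55610030, shares 123 exonic bases at its 5' end with the 3' end of Rnf31 on the same strand. Rnf31 had 528 reads in UNE-C1 cells and 150 in Control cells, so that reads placed in the shared stretch cannot be assigned to either gene. Irf3 on chromosome 7 (44997648 to 45002848) overlaps Bcl2l12 by 88 exonic bases that are 4136 bases or more from the 3' end of Irf3. Irf1 overlaps the protein-coding gene Gm17334, on the other strand, by 135 exonic bases. These are 5187 bases or more from the 3' end of Irf1. Irf1 (chromosome 11, 53770014 to 53778374), Irf2 (chromosome 8, 46739732 to 46847458), Irf4 (chromosome 13, 30749226 to 30766976), Irf5 (chromosome 6, 29526625 to 29541871) and Irf8 (chromosome 8, 120736358 to 120756694) lie on the plus strand.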

How the data were processed

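RNA from 2 libraries of bone marrow-derived dendritic cells (1 UNE-C1, 1 Control) was sequenced from 500 ng of total RNA with a 3' end kit, per the labels' protocols. The deposited values are raw counts of reads for each gene symbol, a unit read from the values because the count columns are headed only 3 (UNE-C1) and 1 (Control). Bowtie2, edgeR and mm10 are named in the submitters' processing notes, without versions or roles. The counting tool, annotation, strand setting and handling of multiply mapped reads are not stated in any source used here. No molecular identifiers are named, so PCR copies cannot be told from separate molecules.

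Of 23282 entries per file, 79 belonged to 35 repeated symbols (no member among them), which were summed. Counts were turned into CPM with TMM library sizes (edgeR 4.0.16, R 4.3.3; factors 0.888 for UNE-C1 and 1.13 for Control). Log2 fold changes (UNE-C1 over Control) were taken of CPM + 1, which shrinks the differences of low genes. The floor of 50 reads in at least 1 library corresponds to 3.52 CPM in UNE-C1 cells and 2.99 CPM in Control cells. Intervals are exact (scipy 1.17.1), those of ratios of ratios being conditional intervals of the odds ratio. A count of 0 was taken to allow 3 reads. With 1 library per group no test was run, and a gene is described as higher or lower by size alone. The procedure was checked on simulated counts that held counting error only. That check cannot speak to variation between replicates or to the choice of scaling.

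The members and the 16 gene lists were chosen with earlier results of these data known. Named were all members, up to 4 genes per pathway or IRF-dependent list with the largest absolute log2 fold change (1 per list of other markers), a fixed set of partners and the 3 genes nearest to each member that differed 2-fold. The Irf2bp genes, H2-Ab1, Zbtb46, Flt3, Cd74, H2-Eb1, Cd83, Klf4, Ciita, Cybb, Ifng, Siglech, Pax5, Cd3e, the overlapping genes and the ratios of partner genes to members were chosen after their values were seen. So were Fcgr1, Ly6c2, Adgre1, Lyz2, Tcf4, Ccr9, Wdfy4 and Naaa. Alternatives were DESeq2 (1.42.0) size factors, total counts with and without the ribosomal RNA precursor Rn45s (3.98% of UNE-C1 and 5.21% of Control reads), pseudocounts of 0.1 and 5, and floors of 200 reads or none. Sequences are those of RefSeq on GRCm38.p6 and positions those of GENCODE M21. Proteins were not compared, and some results are not reported here.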

Additional observations from a re-analysis of the deposited data

How the results depend on the processing

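Each condition had 1 library, so no value here could be tested against replicates, and depth left Irf1 and Irf5 in Control cells unordered and gave Irf3 and Irf4 wide counting intervals. No paired analysis was possible because each group had a single library. All 8 members kept their direction under all 7 alternatives, and all values stayed within their counting intervals with DESeq2 size factors, a pseudocount of 0.1 and other floors. A pseudocount of 5 gave Irf7 a value of 5.03 on the log2 scale. The interval of the Irf3 ratio held 1 with TMM and DESeq2 scaling and lay below 1 with both total-count settings. With total counts all members were lower by about the shift of the median gene: Irf1 1.08, Irf2 0.21, Irf3 -0.52, Irf4 -0.61, Irf5 0.35, Irf7 4.82, Irf8 0.98 and Irf9 0.38, with a median of 0.37. Without Rn45s as well these were 1.06, 0.19, -0.54, -0.63, 0.33, 4.81, 0.96 and 0.37, with a median of 0.35. Members at least 2-fold higher then numbered 2 in place of 3, and all genes past the floor 657 higher and 1693 lower with total counts (642 and 1766 without Rn45s), in place of 975 and 986. With a pseudocount of 5 those counts were 724 and 484, and with a floor of 200 reads 776 and 579. On the lists, both total-count settings left 0 activating kinases and adaptors and 0 interferon ligands, receptors and Janus kinases at least 2-fold higher, with 1 gene of the second list lower, 2 IRF8-dependent genes lower, 1 IRF4-dependent gene higher and 2 conventional dendritic cell markers lower. Without Rn45s, 1 of the restraining genes was also lower. A floor of 200 reads left 0 IRF8-dependent genes lower, and a pseudocount of 5 left 1 mast cell, basophil and eosinophil marker lower. Shares without Irf7 were by construction larger: in UNE-C1 cells 19.1% for Irf1, 11.8% for Irf2, 1.13% for Irf3, 1.32% for Irf4, 10.8% for Irf5, 47.7% for Irf8 and 8.02% for Irf9, and in Control cells 14.6% for Irf1, 16.6% for Irf2 and 39.2% for Irf8. Using the first entry of repeated symbols left all shares as they were.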

Other observations

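None of the 3 Irf2bp genes, which encode corepressors that bind IRF2 and a relative of them, was 2-fold higher or lower in UNE-C1 cells. Irf2bp1 had 207 reads in UNE-C1 cells and 296 in Control cells, a ratio of 0.825 (interval 0.687 to 0.989). Irf2bp2 had 1787 and 2560 reads in the same order, a ratio of 0.823 (0.775 to 0.875). Irf2bpl had 613 and 620 reads, a ratio of 1.17, and its log2 fold change of 0.22 turned to -0.12 with total counts.

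Reads of the partner PU.1 were set against those of the members that shape dendritic cell identity. There were 0.329 Spi1 reads per Irf8 read in UNE-C1 cells (0.318 to 0.340) and 1.13 in Control cells (1.09 to 1.17). There were 11.9 Spi1 reads per Irf4 read in UNE-C1 cells (10.7 to 13.2) and 13.4 in Control cells (12.3 to 14.6), and the ratio of these ratios, 0.889, had an interval (0.776 to 1.02) that holds 1. Batf3 reads per Irf8 read were 0.0524 in UNE-C1 cells and 0.156 in Control cells. These ratios are taken within a library and do not depend on the scaling between libraries.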
